A study of Mus musculus with 19 samples.

Results

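The amino acid transporter families of the mouse endometrium were examined as 7 families of solute carriers, namely the Slc1a, Slc3a, Slc6a, Slc7a, Slc36a, Slc38a and Slc43a genes. Members were chosen by symbol alone, as every gene of the deposited counts whose mouse symbol begins with one of these family names followed by a number, and 67 of the 49089 genes met that rule. Of these, 64 are protein-coding and 3 are antisense transcripts (Slc6a19os, Slc36a1os and Slc36a3os). Slc7a6os is protein-coding and shares the family name by position rather than as a carrier. The rule uses no level of expression.

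Amino acids cannot cross the cell membrane unaided, so cells take them up and exchange them through carriers that differ in substrate and in what drives them. The Slc1a and Slc6a carriers couple uptake to sodium and can concentrate their substrates. The Slc7a light chains mostly exchange amino acids across the membrane after pairing with a heavy chain of the Slc3a family. Some Slc36a carriers run with protons, and the Slc38a carriers move glutamine and other small neutral amino acids. The Slc43a family includes carriers that let large neutral amino acids pass down their gradient. In the uterus, these carriers set which amino acids reach the endometrial cells and the luminal fluid in which the embryo lies before it attaches. Arginine, leucine and glutamine are known for their effects on the blastocyst and on growth signalling through mTORC1, a kinase complex that senses amino acids.

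Endometrium was scraped from the myometrium of wild-type C57Bl/6 females, and total RNA was sequenced from pooled samples. The study's methods give an age of 8 to 14 weeks for the females that were mated and no separate age for virgin females. The CONT columns (3 libraries, numbered 1, 2 and 4) hold virgin females at estrus, collected around the time of ovulation. The INT columns (4 libraries) hold females mated to intact BALB/c males and collected at day 3.5 pc, before attachment. Comparing them with CONT addresses how the endometrium changes as it becomes receptive. Per the study's methods, CONT tissue was taken late in the evening and day 3.5 pc tissue at noon. Stage, mating and time of day therefore differ together in every comparison with CONT and cannot be told apart. The SVX, SVX_VAS and VAS columns (4 libraries each) hold day 3.5 pc females whose mates had been vasectomised, lacked seminal vesicles, or both, but the column names and the sample titles of these 3 groups name different surgeries. They are therefore called by their column names and no surgery is assigned to them. How many animals made up a pool was not found in the sources, and p-values measure the spread between these pools.

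Totals ranged from 12661266 to 31781270 counts per library, and the 67 transporter genes took 0.214% to 0.297% of them. In VAS 2 and VAS 3 the gene with the most counts held 0.164% and 0.166% of the library, against 0.724% to 1.41% in the other 17 libraries, and 25016 and 25037 genes had a count, against 27757 or more elsewhere. Of 16405 genes with at least 1 CPM (counts scaled to the size of the library) in each of the other 17 libraries, 693 (4.22%) were at 0 in both of these, and among the transporter genes Slc6a20b and Slc7a15 were at 0 in both. The counts of members and of listed genes called in VAS are given with and without this pair, an alternative chosen after seeing the data. Genes of the estrogen response (a list of 7 genes including Ltf and Lcn2) summed to 11531 to 15004 CPM at estrus, and among the day 3.5 pc libraries they were at 10818 in SVX_VAS 2, 9918 in INT 1, 3431 in INT 2, 2815 in VAS 1 and 208 to 1110 in the other 12. Progesterone-response genes were higher on day 3.5 pc (6 of 7 called in the INT, SVX and VAS columns and 5 of 7 in SVX_VAS). Of the 7 estrogen-response genes, 1, 6, 1 and 2 were called lower in INT, SVX, SVX_VAS and VAS. In VAS without VAS 2 and VAS 3, 0 of these 7 were called.

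Genes were tested where 3 or more of the 19 libraries reached 3 CPM, which 38 of the 67 members and 17222 of all genes did. A member was called higher or lower when its logFC (log2 fold change in the edgeR fit) was 0.58 or more in size with an FDR of 0.05 or less. In INT against CONT, 16 members were called higher and 4 lower, where 20.9% of all genes tested were called higher and 12.7% lower. In SVX against CONT, 16 members were higher and 6 lower (all genes: 23.1% and 18.5%). SVX_VAS against CONT gave 16 higher and 5 lower members (22.2% and 16.5%), and VAS against CONT gave 16 higher and 3 lower (23.3% and 17.3%). The lower calls in VAS depended on the libraries and the test, with 18 higher and 7 lower members without VAS 1 (all genes: 25.0% and 22.9%) and 16 and 7 with limma-voom (22.6% and 28.2%). Without VAS 2 and VAS 3, 16 were higher and 2 lower by edgeR (22.1% and 14.2%, together 36.3%). Without this pair limma-voom also gave 16 and 2, and it called 6319 of all genes, 56.9% of them higher. The median logFC over the 38 members was 0.30, 0.31, 0.28 and 0.22 in the 4 comparisons, beside medians of -0.01, -0.01, -0.02 and -0.07 over all genes. All 4 comparisons use the same 3 CONT libraries, so they are not independent of each other. In the same order of comparisons, day 3.5 pc and estrus values were fully apart for 27, 27, 29 and 21 of the 38 members, where the share over all genes was 62.3%, 70.9%, 67.5% and 55.0%.

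**Figure D1:**
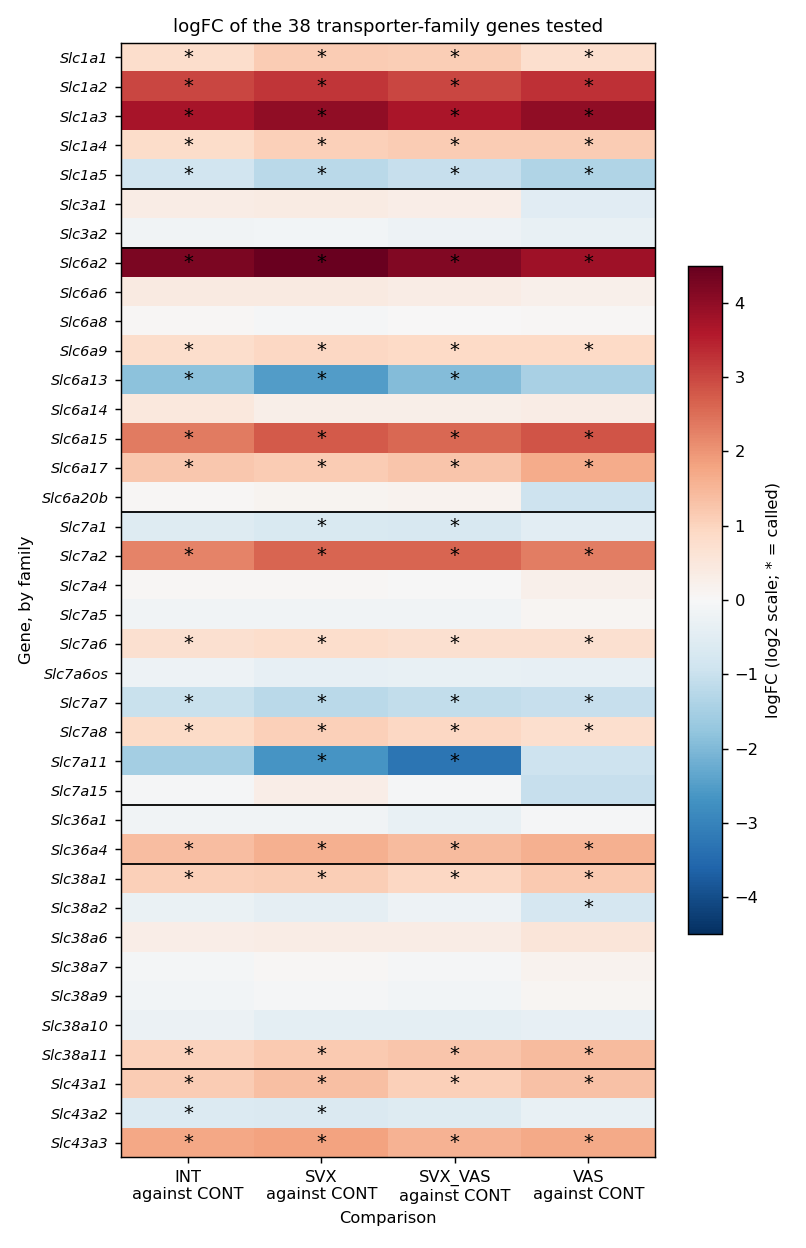
Heat map of the logFC against CONT (colour, log2 scale) for the 38 members tested, in rows ordered by family, and the 4 day 3.5 pc groups in columns, where an asterisk marks a call. The strongest rises are in Slc6a2, Slc1a3 and Slc1a2, and both Slc3a rows carry no asterisk.

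Summed over a family and corrected for gene length (TPM), the Slc38a genes were the most abundant at estrus with 394 ± 17.4 (SD, n = 3) TPM, followed by Slc1a with 356 ± 17.5 (SD, n = 3) and Slc7a with 285 ± 2.58 (SD, n = 3). The Slc6a sum was 153 ± 6.83 (SD, n = 3) TPM at estrus and 319.8 ± 78.2 (SD, n = 4) in the INT libraries, with every INT library (245 to 413) above every CONT library (145 to 159). On this scale, which divides by the whole library, the Slc38a sum was 374 to 406 TPM at estrus and 384 to 407 in INT, and the ranges overlapped. The Slc3a sum also overlapped (105 to 114 against 102 to 125 TPM), as did the Slc1a sum (339 to 374 against 255 to 344 TPM). In the Slc36a family the INT libraries (41.1 to 52.9 TPM) lay above those at estrus (23.5 to 33.8 TPM). There VAS 2 and VAS 3 stood at 92.7 and 98.8 TPM against 43.2 and 53.4 in VAS 1 and VAS 4. This pair lay above all other libraries for Slc36a, and also for Slc6a, Slc7a, Slc38a and Slc43a. The order depended on the scaling. With DESeq2 size factors in place of the library total, INT lay below CONT without overlap for Slc38a (390.2 to 433 against 451 to 497), Slc1a (259 to 366 against 409 to 438) and Slc3a (103 to 125 against 127 to 130.4), while Slc6a remained higher in INT (261 to 412 against 180 to 186). On that scaling VAS 2 and VAS 3 did not both stand above the other libraries, with 54.5 and 57.6 for Slc36a (highest of the others 55.9) and 60.2 and 66.8 for Slc43a (69.4). A few members carry most of a family sum, since Slc3a2 made up 91.2% of Slc3a and Slc1a5 62.5% of Slc1a over all libraries.

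**Figure D2:**
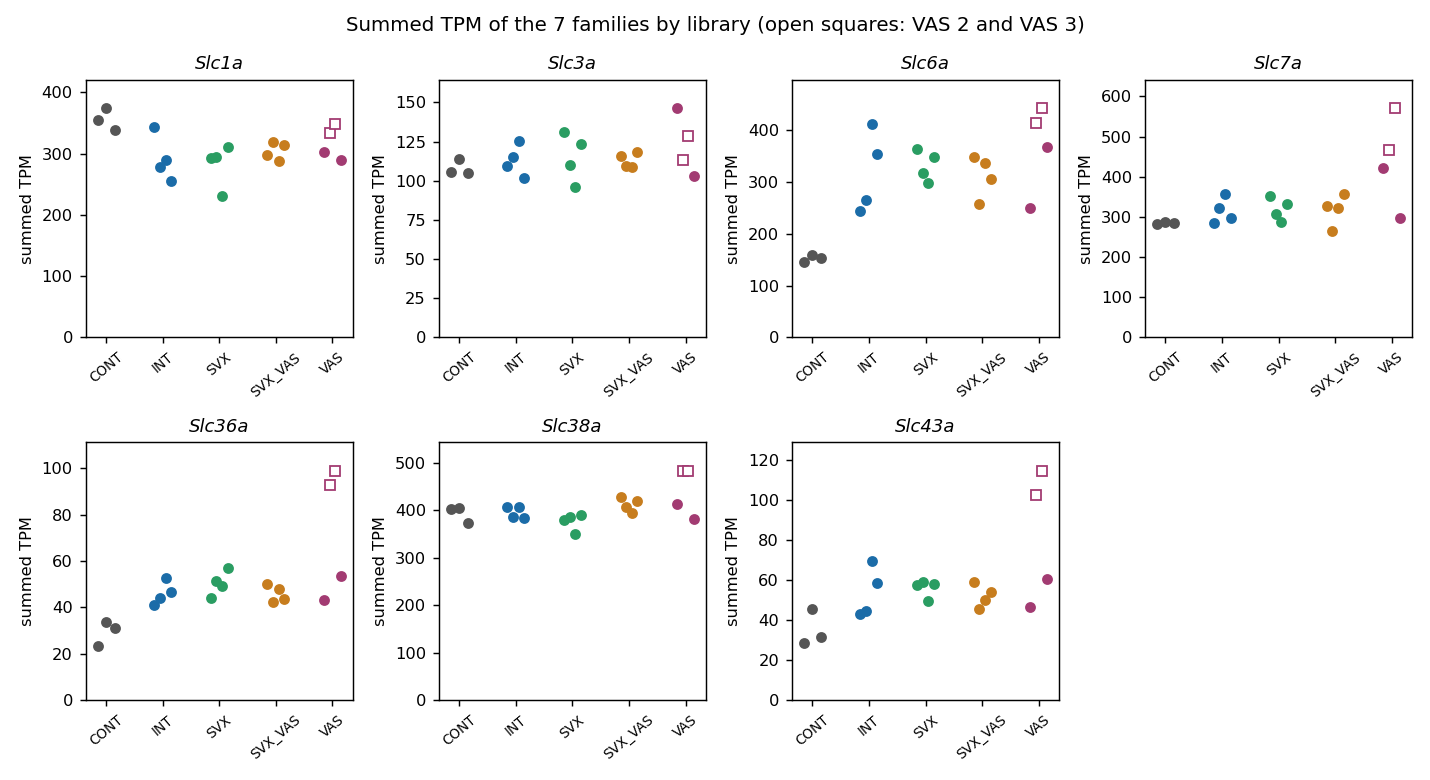
Summed TPM of each family (vertical axes, from 0) for the 19 libraries by group, 1 point per library, with VAS 2 and VAS 3 as open squares. The Slc6a sum separates the CONT libraries (145.3 to 159 TPM) from all INT libraries (245 to 413 TPM). In the Slc6a, Slc7a, Slc36a, Slc38a and Slc43a panels the 2 open squares lie above all other libraries. With DESeq2 size factors they did not both lie above the others in any family.

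Mean over the 19 libraries, the 10 most abundant members per length were Slc38a2 (239 TPM), Slc1a5 (193), Slc6a6 (115), Slc3a2 (105), Slc6a2 (95.4), Slc1a1 (87.0), Slc38a10 (76.5), Slc7a8 (68.7), Slc7a2 (53.6) and Slc6a14 (41.4). These are carriers of glutamine and other neutral amino acids, taurine, glutamate and cationic amino acids, together with the noradrenaline carrier Slc6a2 and the heavy chain Slc3a2. These means pool estrus and day 3.5 pc. At estrus Slc1a5 (309, 319.7 and 289 TPM) lay above Slc38a2 (272, 264 and 239 TPM), and Slc6a2 was at 3.68, 3.71 and 7.99 TPM. Order among neighbours was not fixed, because the libraries of Slc6a6, Slc3a2 and Slc6a2 overlapped with each other on day 3.5 pc, with TPM of 100.1, 106, 137 and 129.8, 98.9, 105, 113 and 90.0 and 59.1, 82.1, 183 and 114 in INT 1 to 4.

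Within the Slc1a family, the glutamate carriers rose and the glutamine exchanger fell. All 5 tested members were called in INT against CONT, 4 of them higher, where 20.9% of all genes were called higher and 12.7% lower. Slc1a3 (chr15:8634124-8710764, minus strand), a high-affinity glutamate and aspartate carrier known from glia, was at 0.357, 1.33 and 1.14 CPM at estrus and at 11.7, 12.1, 12.7 and 13.7 CPM in INT 1 to 4. No library of one group reached the range of the other, and the means were 0.941 ± 0.515 CPM (SD, n = 3) and 12.6 ± 0.870 CPM (SD, n = 4) (logFC 3.71, SE 0.40, FDR 5.66e-06). In the other day 3.5 pc groups the logFC of Slc1a3 was 3.98, 3.68 and 4.0 for SVX, SVX_VAS and VAS (highest FDR 4.01e-06), and 3.48 for VAS without VAS 2 and VAS 3.

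Slc1a2, the main glutamate carrier of astrocytes (chr2:102658659-102790784, plus strand), was at 0.297, 0.467 and 0.303 CPM at estrus and 1.36, 2.08, 3.59 and 4.76 in INT (logFC 2.99, SE 0.52, FDR 0.000237). The estrus libraries lay close to the level of a few counts, and its exons overlap Gm13872 on the opposite strand. The logFC was 3.21, 2.99 and 3.30 in the other 3 groups. Slc1a1 (chr19:28835049-28913960, plus strand), which carries glutamate, aspartate and cysteine and is the glutamate carrier most widely found in epithelia, was far more abundant and rose less, with 75.5, 88.3 and 84.4 CPM at estrus and 145, 122, 143 and 158 in INT (logFC 0.78, SE 0.17, FDR 0.00169). Slc1a1 was at 150.5 to 214 CPM in SVX and 142 to 217 in SVX_VAS, both overlapping INT.

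The neutral carriers of the family went in opposite directions. Slc1a4 (chr11:20302180-20332713, minus strand), an exchanger of alanine, serine, cysteine and threonine, was at 11.9, 10.7 and 11.5 CPM at estrus and 17.1, 17.8, 25.6 and 20.4 in INT (logFC 0.83, SE 0.17, FDR 0.000692), and the logFC was 1.08, 1.13 and 1.15 in SVX, SVX_VAS and VAS. Slc1a5 (chr7:16781340-16798274, plus strand), an exchanger through which many dividing cells take up glutamine, was at 438, 431 and 412 CPM at estrus and 313, 235, 212 and 171 in INT (logFC -0.87, SE 0.25, FDR 0.00954). All INT libraries lay below all estrus libraries, and INT 1, the INT library with the highest estrogen-response sum, was the highest of the 4. In SVX 1 to 4 Slc1a5 was at 230.1, 171, 149 and 191 CPM, in SVX_VAS 1 to 4 at 152, 265, 181 and 225 and in VAS 1 to 4 at 250.4, 130.5, 117 and 178 (logFC -1.20, -1.05 and -1.34, highest FDR 0.00238). SVX_VAS 2 and VAS 1, which also had high estrogen-response sums, were the highest of their groups for Slc1a5, and the part of the estrogen response in the result was not tested. Leaving out VAS 2 and VAS 3 gave a logFC of -1.0 for VAS.

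Genes of the luminal and general epithelium list (6 genes) summed to 3250.0 to 4445 CPM at estrus, with 4, 6, 5 and 5 of the 6 called lower in INT, SVX, SVX_VAS and VAS. Endothelial genes (6 genes) summed to 139 to 212 CPM at estrus and 473 to 936 on day 3.5 pc, with 6 of 6 called higher in each comparison, and 4, 4, 4 and 3 of the 7 stroma genes were called higher, although the stroma sum was 1714 and 1818 CPM in VAS 2 and VAS 3 against 4790.0 to 8426 elsewhere. No gene of any list was at 0 throughout. In bulk RNA, fewer cells of a type and less RNA per cell cannot be told apart, and the part of these lists in the transporter results was not tested. T and NK cell genes (5 of 6 tested) were higher for all 5 in each comparison, while proliferation genes were lower for 0, 1, 3 and 1 of 6 and glandular epithelium genes higher for 4, 5, 3 and 4 of 6 (1 lower in SVX). Smooth muscle genes, which would mark carry-over of myometrium, summed to 256 to 608 CPM at estrus and 257 to 1118 on day 3.5 pc. In INT, SVX, SVX_VAS and VAS, 1, 1, 1 and 0 of these 5 genes were called higher. Macrophage genes were higher for 3, 4, 3 and 3 of 5 and lower for 1, red blood cell genes were higher for 4, 5, 4 and 4 of 5, and of the mesothelium and fat list 1 of 3 tested was higher in each comparison and 2 lower in SVX. Neutrophil and eosinophil genes (2 of 7 tested) were lower for 1 in each comparison, and of the nerve and glia list 1 of 7 genes was tested, called higher in SVX and VAS. Without VAS 2 and VAS 3, VAS against CONT gave 3 of 6 luminal and general epithelium genes lower, 6 of 6 endothelial and 5 of 7 stroma genes higher, 3 of 6 glandular genes higher and 1 lower, and 0 of 6 proliferation genes lower. Of the other lists, 4 of 4 T and NK cell genes, 6 of 7 progesterone-response, 3 of 5 macrophage, 5 of 5 red blood cell, 1 of 5 smooth muscle and 1 of 3 mesothelium and fat genes were then higher, and 1 macrophage, 2 mesothelium and fat and 1 neutrophil and eosinophil gene lower, while the nerve and glia gene was not called.

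The member with the largest logFC in INT, SVX and SVX_VAS by edgeR belonged to the Slc6a family. In VAS its logFC was below that of Slc1a3, but without VAS 2 and VAS 3 it was above (4.02 against 3.48). Slc6a2 (chr8:92960079-93001667, plus strand), the carrier that clears noradrenaline and so no amino acid carrier despite its family, was at 7.85, 7.54 and 17.1 CPM at estrus and at 113, 154, 329 and 208 CPM in INT 1 to 4. The lowest INT library was above the highest estrus library by several fold, and the means were 10.8 ± 5.45 CPM (SD, n = 3) and 201 ± 93.5 CPM (SD, n = 4) (logFC 4.23, SE 0.43, FDR 4.08e-06). INT 3 was the highest of its group. Slc6a2 was at 263, 213, 210.2 and 246 CPM in SVX, 225, 121, 218 and 201 in SVX_VAS and 114, 112, 146 and 233 in VAS, with logFC of 4.44, 4.15 and 3.81 and, for VAS without VAS 2 and VAS 3, 4.02. In mated libraries it took a large part of the Slc6a sum, with 59.1, 82.1, 183 and 114 TPM in INT against 3.68, 3.71 and 7.99 at estrus.

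Slc6a15, Slc6a17 and Slc6a9, which carry neutral amino acids, were called higher as well, while Slc6a14 and Slc6a20b were not called (logFC 0.48 and 0.05, FDR 0.267 and 0.972 in INT). Slc6a15 (chr10:103367808-103419378, plus strand), a sodium-coupled carrier of branched-chain amino acids and proline, was at 0.892, 1.69 and 2.12 CPM at estrus and 5.22, 6.55, 9.81 and 9.94 in INT (logFC 2.33, SE 0.33, FDR 4.46e-05). Its logFC was 2.77, 2.59 and 2.83 in SVX, SVX_VAS and VAS, with no overlap with estrus in any of them. Slc6a17 (chr3:107467543-107518018, minus strand), which carries neutral amino acids into vesicles, was at 1.90, 3.12 and 4.55 CPM at estrus and 7.41, 6.49, 6.39 and 9.03 in INT (logFC 1.20, SE 0.29, FDR 0.00275), and its logFC in the other groups was 1.15, 1.24 and 1.67. Slc6a9, the glycine carrier (chr4:117834506-117875198, plus strand), was at 7.49, 6.89 and 6.75 CPM and 10.4, 10.4, 14.4 and 13.0 CPM (logFC 0.78, SE 0.13, FDR 0.000219), with 0.94, 0.89 and 0.90 in the other groups. Glycine is known to help the early embryo regulate its volume. Exons of Slc6a9 overlap those of 3 genes on the opposite strand (B4galt2, Ccdc24 and Gm17114), and whether the counting used strand was not given in the sources.

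Slc6a13 was the member of the family called lower by edgeR with all libraries, and its calls in INT and SVX_VAS depended on single libraries and on the fit. It carries GABA and taurine (chr6:121300227-121337733, plus strand) and was at 7.37, 11.5 and 8.72 CPM at estrus, 2.42, 4.85, 1.14 and 1.75 in INT and 2.57, 1.57, 1.39 and 0.931 in SVX. In SVX_VAS it was at 0.869, 0.665, 1.52 and 6.69 CPM, where replicate 4 stood apart, and in VAS at 7.10, 2.05, 3.10 and 1.13 CPM. The call in INT was near its threshold (logFC -1.85, SE 0.72, FDR 0.0441) and was lost without CONT 1, CONT 2, CONT 4, INT 1, INT 3 or INT 4 (logFC -1.99, -1.66, -1.89, -1.83, -1.64 and -1.71). That in SVX_VAS (logFC -1.94, SE 0.72, FDR 0.0332) was lost without CONT 2, CONT 4, SVX_VAS 1, SVX_VAS 2 or SVX_VAS 3 (logFC -1.74, -1.97, -1.65, -1.62 and -1.77), whereas without SVX_VAS 4 the logFC was -3.18. In SVX it was -2.51 (FDR 0.00867). In VAS, where edgeR made no call with all libraries, it was -1.45 (FDR 0.0922), whereas limma-voom gave -1.74 (FDR 0.00262). Without VAS 1, the VAS library with the most Slc6a13, edgeR called it lower in VAS (logFC -2.12, FDR 0.0208). Without VAS 2 and VAS 3 neither tool called it (-1.15 by edgeR, FDR 0.271).

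Among the Slc6a genes without a call were abundant ones. The taurine carrier Slc6a6 (chr6:91684053-91759066, plus strand) was at 233, 194 and 237 CPM at estrus and 258, 267, 331 and 320.0 in INT, and these libraries did not overlap, but its logFC of 0.41 (SE 0.15, FDR 0.0387) was under the cutoff. The creatine carrier Slc6a8 was at 29.9 to 38.8 CPM and 31.1 to 41.7 CPM (logFC 0.06, FDR 0.712). Slc6a14 (chrX:21714896-21742355, plus strand), which takes up both neutral and cationic amino acids, was at 28.8, 38 and 27.8 CPM at estrus, 43.4, 31.6, 38.4 and 62.3 in INT and 14.6, 54.8, 42.6 and 48.3 in VAS (logFC 0.34, SE 0.34, FDR 0.394 for VAS). Groups overlapped widely for Slc6a14, with VAS 1 the lowest of all libraries, and without VAS 1 the logFC for VAS was 0.62 and called (FDR 0.0343), whereas without VAS 2 and VAS 3 it was -0.01. Slc6a20b, a carrier of proline and other imino acids, was at 5.17 to 7.07 CPM at estrus, 4.33 to 7.21 in INT and 0 in VAS 2 and VAS 3, and limma-voom called it lower in VAS (logFC -4.52, FDR 0.00231) but not without those 2 libraries (0.07 by edgeR).

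**Figure D3:**
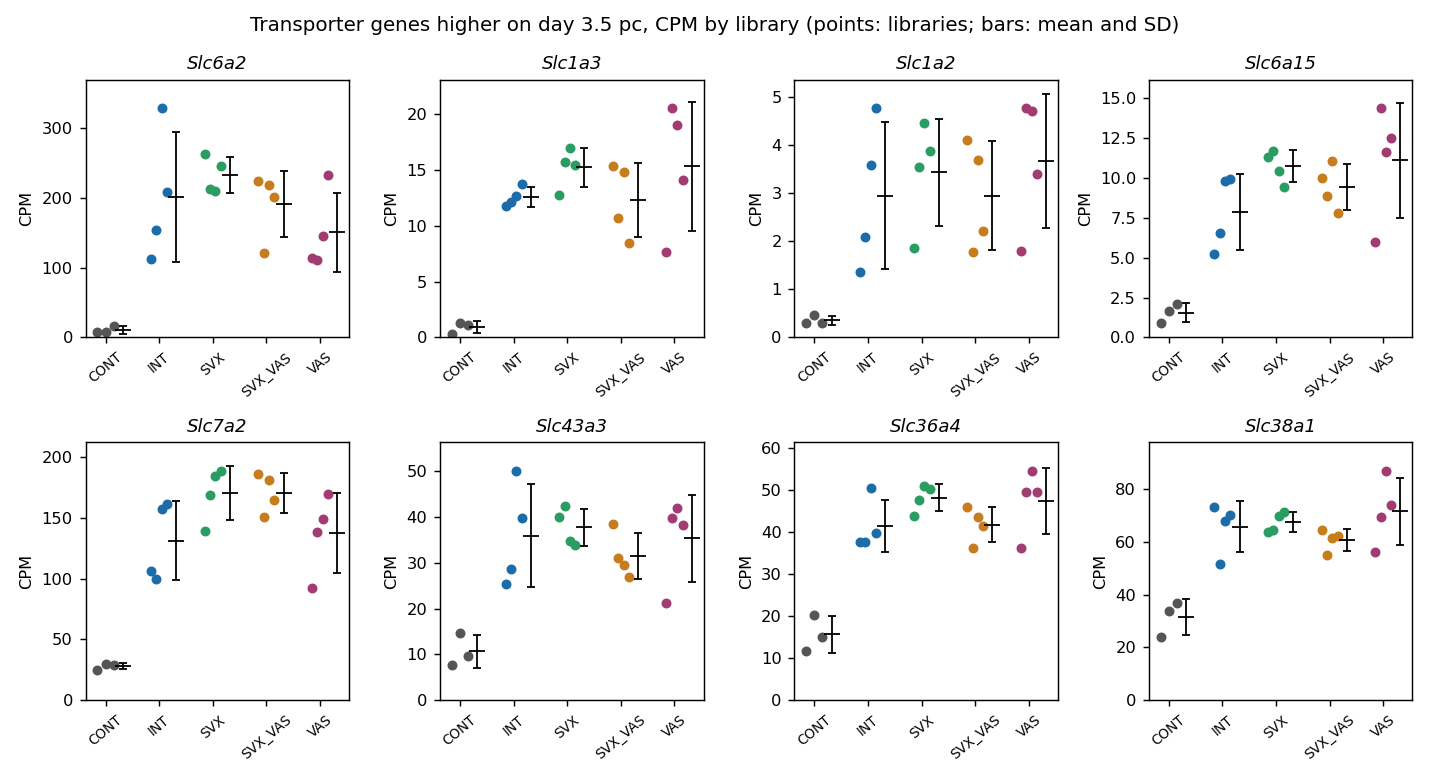
CPM of 8 members called higher on day 3.5 pc (vertical axes from 0), 1 point per library in 5 groups, with the mean and SD drawn beside each group. For Slc6a2 the CONT libraries lie between 7.54 and 17.1 CPM and the day 3.5 pc libraries between 112 and 329 CPM, and in each panel every CONT point lies below every day 3.5 pc point.

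The heavy chains of the Slc3a family, which take the light chains to the cell surface, had no call by edgeR with all libraries in any comparison with estrus, although in VAS both were called lower without VAS 1 and limma-voom called Slc3a1 lower (logFC -0.72, FDR 0.0113), a call not made without VAS 2 and VAS 3. Slc3a2 (chr19:8706882-8723369, minus strand), the partner of Slc7a5, Slc7a6, Slc7a7, Slc7a8, Slc7a10 and Slc7a11, was at 118, 121 and 116 CPM at estrus and 106, 110.4, 115 and 92.6 in INT (logFC -0.16, SE 0.18, FDR 0.512). The interval between the groups was small but they did not overlap. Slc3a2 was at 128, 99.4, 94.9 and 107 CPM in SVX, 99.6, 102, 99.5 and 108 in SVX_VAS and 141, 66.8, 75.0 and 92.6 in VAS, where VAS 1 was the highest and VAS 2 the lowest of all 19 libraries (logFC -0.33, SE 0.18, FDR 0.131). Without VAS 1 the logFC for VAS was -0.60 and called (FDR 0.000503), and without VAS 2 and VAS 3 it was -0.02. Slc3a1 (chr17:85028347-85064243, plus strand), the partner of the cystine carrier Slc7a9, was at 5.47, 6.14 and 6.60 CPM at estrus, 7.34, 7.31, 7.81 and 7.91 in INT and 5.36, 2.71, 2.54 and 6.42 in VAS (logFC 0.32, SE 0.25, FDR 0.312 for INT and logFC -0.52, SE 0.25, FDR 0.0887 for VAS). VAS 2 and VAS 3 were the lowest, and the logFC for VAS was -0.65 and called without VAS 1, -0.78 and called without VAS 4, and -0.04 without VAS 2 and VAS 3. Its exons overlap Prepl on the opposite strand, and Slc7a9 itself did not reach 3 CPM in any library.

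The light chains that pair with Slc3a2 did not move together. Slc7a8 (chr14:54722216-54781886, minus strand), which exchanges large and small neutral amino acids, was at 32.6, 60.6 and 39.2 CPM at estrus and 61.7, 68.0, 119 and 74.6 in INT (logFC 0.87, SE 0.22, FDR 0.00369), so the libraries lay close at their nearest point, CONT 2 and INT 1. Its logFC was 1.06, 0.92 and 0.74 in SVX, SVX_VAS and VAS, and the VAS call was lost without CONT 1 (0.56, FDR 0.0561). Slc7a6 (chr8:106168857-106198706, plus strand), which exports cationic for neutral amino acids and sodium, was at 29.1, 31.7 and 33.4 CPM and 46.8, 46.3, 62.5 and 49.4 CPM (logFC 0.71, SE 0.10, FDR 3.70e-05), with a logFC of 0.80, 0.73 and 0.73 in the other groups. This was the tightest rise of the family, and in INT its logFC was 0.57, under the cutoff, without INT 3. Slc7a7 (chr14:54369442-54417780, minus strand), which performs the same exchange and is known from intestine, kidney and macrophages, fell from 45.5, 39.0 and 37.8 CPM at estrus to 22.9, 23.2, 15.7 and 19 in INT (logFC -1.01, SE 0.12, FDR 1.34e-05), with -1.22, -1.11 and -1.02 in SVX, SVX_VAS and VAS (highest FDR 9.38e-06). Thus 1 light chain for this exchange was called higher and the other lower, and the groups did not overlap for either. Exons of Slc7a7 overlap those of Oxa1l on the opposite strand.

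Slc7a5 (chr8:121881150-121907694, minus strand), the exchanger that brings leucine and other large neutral amino acids into dividing cells, was at 49.8, 47.9 and 35.6 CPM at estrus, 34.6, 42.2, 47.9 and 35.4 in INT, 50.2, 36.0, 35.7 and 36.3 in SVX, 36.9, 25.1, 42.4 and 53.3 in SVX_VAS and 72.4, 30.5, 53.3 and 32.3 in VAS. Groups overlapped in every comparison (logFC -0.15, -0.17, -0.17 and 0.08, lowest FDR 0.638), and VAS 1 was the highest of all 19 libraries. The sign for VAS was not fixed, since it was -0.20 without VAS 1 and -0.05 without CONT 4. For SVX the sign was positive with upper quartile scaling (0.00). The proliferation list (6 genes) was also highest among the day 3.5 pc libraries in VAS 1, at 1756 CPM, and its part in these values was not tested.

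Slc7a11 (chr3:49892526-50443614, minus strand), which exchanges glutamate for cystine and so feeds the synthesis of glutathione, varied more between libraries of a group than any other tested member, with a pooled SD of 1.67 on the log2 scale over the day 3.5 pc groups against a median of 0.25 for the 38 members. Slc6a20b, at 0 in VAS 2 and VAS 3, was close behind at 1.65. Slc7a11 was at 317, 233 and 401 CPM at estrus and at 159.7, 234, 15.2 and 27.4 CPM in INT 1 to 4. INT 2 lay in the range of the estrus libraries, INT 3 and INT 4 lay far below all of them, and no call was made (logFC -1.54, SE 1.07, FDR 0.254). In SVX 1 to 4 it was at 154, 16.8, 16.5 and 13.6 CPM, where replicate 1 stood apart, and in SVX_VAS 1 to 4 at 16.1, 38.5, 11.4 and 64.5 CPM. Both groups lay below estrus (logFC -2.66, SE 1.10, FDR 0.0486 and logFC -3.28, SE 1.12, FDR 0.0210). These calls were weak, because that in SVX was lost without any of CONT 1, CONT 2, CONT 4, SVX 2, SVX 3 or SVX 4 (logFC -2.66, -2.84, -2.46, -2.37, -2.37 and -2.34) and that in SVX_VAS without SVX_VAS 1 or SVX_VAS 3 (-3.06 and -3.00). Without SVX 1 the logFC in SVX was -4.34, still called, and without SVX_VAS 4 that in SVX_VAS was -3.85. In VAS 1 to 4 it was at 422, 67.8, 158 and 20.6 CPM, so VAS 1 was the highest of all 19 libraries (logFC -0.92, SE 1.06, FDR 0.466). With 1 library left out, the logFC ran from -1.95 (without VAS 1) to -0.55 (without VAS 4) in VAS and from -2.23 (without INT 2) to -1.21 (without INT 3) in INT, and it was -0.52 in VAS without VAS 2 and VAS 3, with no call in any of these.

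The libraries with much Slc7a11 were in part those with high estrogen-response sums. The estrogen-response sum was 9918, 3431, 212 and 277 CPM in INT 1 to 4, 630.1, 239.5, 210.2 and 240.4 in SVX, 256, 10818, 253 and 1110.0 in SVX_VAS and 2815, 1101, 579 and 208 in VAS. SVX_VAS 2 had the highest sum of the day 3.5 pc libraries and 38.5 CPM of Slc7a11, whereas VAS 3 had a sum of 579 CPM and 158 CPM of Slc7a11. Whether these cells or their state had a part in the Slc7a11 values was not tested.

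**Figure D4:**
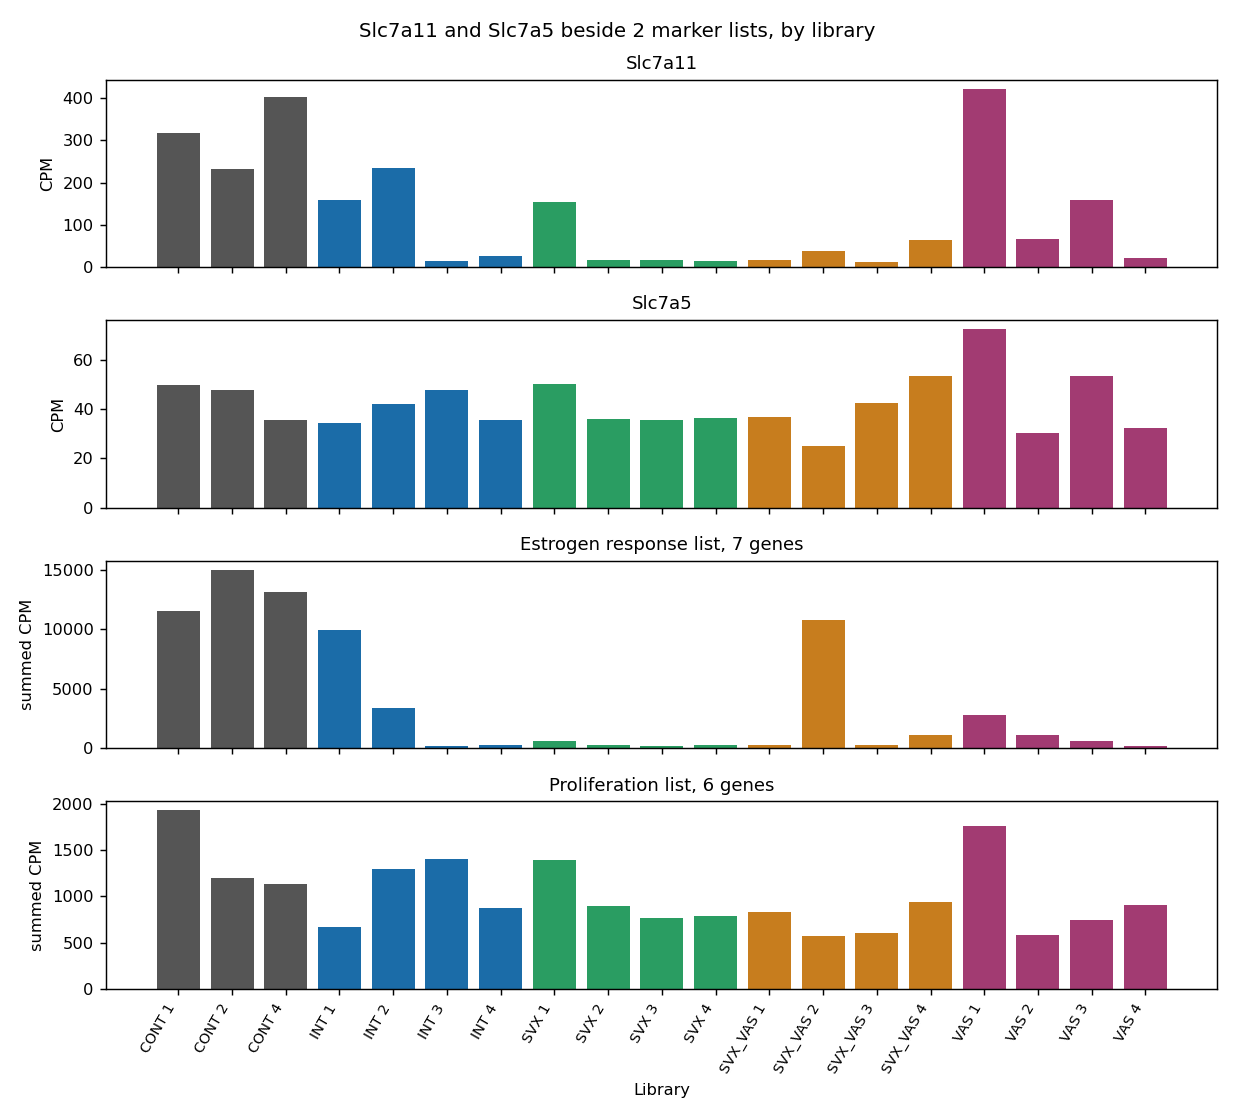
Bars from 0 for each of the 19 libraries, coloured by group, of Slc7a11 and Slc7a5 (CPM) and of the summed CPM of the estrogen response and proliferation lists. Slc7a11 is at 422 CPM in VAS 1, 234 in INT 2 and 11.4 in SVX_VAS 3, and the estrogen list is high in SVX_VAS 2 where Slc7a11 is at 38.5 CPM.

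Many genes of amino acid transport and synthesis are known to be induced when amino acids run short, through ATF4 and a promoter element called AARE. The letters TGATGNAA, searched on both strands, were found in the RefSeq promoter windows (250 bases before to 50 after the gene start, GRCm38.p6) of 3 of the 28 tested members that had a window, Slc7a11, Slc1a4 and Slc7a7, which is 4 of their 41 windows beside 3.97% of all 32851 windows. A pair of overlapping Slc7a7 windows hold 1 match in common, so the members have 5 distinct matches. The sequences are shown because these are the tested members whose windows hold the letters, with Slc1a4 called higher and Slc7a7 lower at day 3.5 pc, and capitals mark the letters found, 5′ to 3′ on the strand of the gene.
Slc7a11, chr3:50443564-50443863, minus strand: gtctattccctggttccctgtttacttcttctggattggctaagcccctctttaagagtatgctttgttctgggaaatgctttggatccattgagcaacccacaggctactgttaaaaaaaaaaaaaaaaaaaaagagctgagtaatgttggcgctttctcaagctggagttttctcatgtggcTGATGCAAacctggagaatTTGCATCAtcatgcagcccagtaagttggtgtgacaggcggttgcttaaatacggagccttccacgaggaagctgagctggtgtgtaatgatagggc
Slc1a4, chr11:20332664-20332963, minus strand: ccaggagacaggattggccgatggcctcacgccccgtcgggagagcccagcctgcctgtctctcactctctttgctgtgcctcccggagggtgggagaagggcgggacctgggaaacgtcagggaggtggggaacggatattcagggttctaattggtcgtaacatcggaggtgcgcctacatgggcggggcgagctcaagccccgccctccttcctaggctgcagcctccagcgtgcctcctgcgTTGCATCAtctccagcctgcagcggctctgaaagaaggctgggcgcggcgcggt
Slc7a7, chr14:54417895-54418194, minus strand: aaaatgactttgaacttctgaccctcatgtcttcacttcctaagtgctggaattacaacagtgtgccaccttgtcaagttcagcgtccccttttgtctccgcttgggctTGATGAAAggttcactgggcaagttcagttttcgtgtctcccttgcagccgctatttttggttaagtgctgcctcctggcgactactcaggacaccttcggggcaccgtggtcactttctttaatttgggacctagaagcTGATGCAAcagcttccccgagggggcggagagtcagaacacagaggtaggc
The window of Slc7a11 holds 2 matches on opposite strands, that of Slc1a4 holds 1, and this window of Slc7a7 holds 2. A match describes the letters and is neither a site nor a cause. In INT against CONT the logFC was -1.54 for Slc7a11, 0.83 for Slc1a4 and -1.01 for Slc7a7. The palindromic estrogen response element was in 0 of the 28 members' windows and 0.07% of all windows, and the progesterone response element was in that of Slc38a11 and in 0.475% of all. The antioxidant response letters TGACNNNGC were in the windows of 7 members (Slc36a1, Slc38a2, Slc43a1, Slc6a13, Slc6a9, Slc7a1 and Slc7a6), which is 9 of 41 windows beside 12.4% of all, with 8 distinct matches because 2 windows of Slc7a6 overlap and share 1.

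Cationic amino acid carriers of the Slc7a family also split. Slc7a2 (chr8:40862396-40922308, plus strand), which brings in arginine, lysine and ornithine, was at 24.9, 29.7 and 28.7 CPM at estrus and 106, 99.9, 157 and 161 in INT, with means of 27.7 ± 2.50 CPM (SD, n = 3) and 131 ± 32.6 CPM (SD, n = 4) (logFC 2.24, SE 0.21, FDR 2.49e-06). It was at 139 to 188 CPM in SVX, 150.3 to 186 in SVX_VAS and 92.3 to 169.6 in VAS, so that all day 3.5 pc libraries lay above all estrus libraries (logFC 2.62, 2.62 and 2.31, and 2.24 for VAS without VAS 2 and VAS 3). Among the day 3.5 pc libraries VAS 1 had the least Slc7a2. Slc7a1 (chr5:148327410-148399904, minus strand), the carrier of the same substrates found in most cells, was at 166, 128 and 136 CPM at estrus and 93.3, 107, 96.5 and 90.9 in INT, without overlap but with a logFC just under the cutoff (logFC -0.57, SE 0.22, FDR 0.0468). It was called lower in SVX (logFC -0.69, SE 0.22, FDR 0.0151) and SVX_VAS (logFC -0.72, SE 0.22, FDR 0.0122) and not in VAS (logFC -0.49, SE 0.22, FDR 0.0744), and both calls were lost without CONT 1 (-0.58 and -0.61). Conversely, Slc7a1 was called lower in VAS without VAS 1 (logFC -0.71, FDR 0.00741). With a minimum of 1 CPM in 3 libraries it was also called lower in INT (logFC -0.62, FDR 0.039). SVX_VAS 4 and VAS 1 were high among the day 3.5 pc libraries at 119 and 146 CPM. Slc7a4, a related protein whose substrate is unsettled, was at 8.57 to 11.3 CPM at estrus and 9.30 to 11.9 in INT, and Slc7a15 was at 0.892 to 3.48 and 1.48 to 3.01 CPM. Neither was called by edgeR, although limma-voom called Slc7a15 lower in VAS (logFC -3.68, FDR 0.00927) but not without VAS 2 and VAS 3 (-0.03 by edgeR), and Slc7a6os, at 45.2 to 47.8 and 36.3 to 41.8 CPM, was lower without reaching the cutoff (logFC -0.21, -0.36, -0.34 and -0.38).

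In the Slc36a family, Slc36a4 rose and Slc36a1 did not. Slc36a4 (chr9:15709738-15742384, plus strand), a high-affinity carrier of proline and tryptophan, was at 11.7, 20.4 and 15.1 CPM at estrus and 37.7, 37.7, 50.6 and 39.8 in INT (logFC 1.39, SE 0.17, FDR 1.55e-05). INT 3 was the highest of its group, and the logFC was 1.61, 1.41 and 1.59 in SVX, SVX_VAS and VAS (highest FDR 1.12e-05). Slc36a1, the proton-coupled carrier of small amino acids that sits on lysosomes and at the cell surface, was at 32.7 to 41.4 CPM at estrus and 29.7 to 35.2 in INT (logFC -0.17, -0.17, -0.32 and -0.05 in the 4 comparisons, none called).

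The Slc38a family held the member with the highest mean TPM over all 19 libraries. In INT, 2 of its 7 tested members were called higher and 0 lower, beside 20.9% and 12.7% of all genes. Slc38a2 (chr15:96687394-96699698, minus strand), the sodium-coupled carrier of glutamine and alanine that cells induce when amino acids are scarce, was at 428, 395 and 377 CPM at estrus and 353, 319, 334 and 309 in INT, with a small gap between the groups and no call (logFC -0.28, SE 0.19, FDR 0.242). It was at 337, 166, 161 and 282 CPM in VAS 1 to 4 and was called lower there (logFC -0.76, SE 0.19, FDR 0.00305). VAS 2 and VAS 3 stood apart from VAS 1 and VAS 4. Without VAS 3 the logFC was -0.579, under the cutoff, and without VAS 2 and VAS 3 it was -0.37. The VAS call therefore rests on these libraries. Slc38a1 (chr15:96571418-96642913, minus strand), a carrier of glutamine known from neurons, rose from 24.0, 33.8 and 36.8 CPM to 73.1, 51.6, 68.0 and 70.2 CPM in INT (logFC 1.06, SE 0.16, FDR 6.28e-05), with 1.10, 0.95 and 1.18 in the other groups. Slc38a11 (chr2:65316430-65364034, minus strand), a member whose substrate is little studied, was low at 1.49, 2.15 and 1.36 CPM and 3.40, 3.28, 3.31 and 3.99 CPM (logFC 1.05, SE 0.23, FDR 0.00165), and its logFC in VAS was 1.44, or 0.98 without VAS 2 and VAS 3. Of the remaining members, Slc38a10 was at 165 to 178 CPM at estrus and 132 to 158 in INT (logFC -0.28, -0.44, -0.42 and -0.36, not called), and Slc38a9, the lysosomal arginine sensor of mTORC1, was at 33.0 to 40.5 and 31.4 to 36.9 CPM (logFC -0.11, -0.05, -0.12 and 0.09). Slc38a7, which releases glutamine from lysosomes, and Slc38a6 were not called either, with logFC of -0.09, 0.05, -0.04 and 0.17 and 0.28, 0.32, 0.33 and 0.53.

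**Figure D5:**
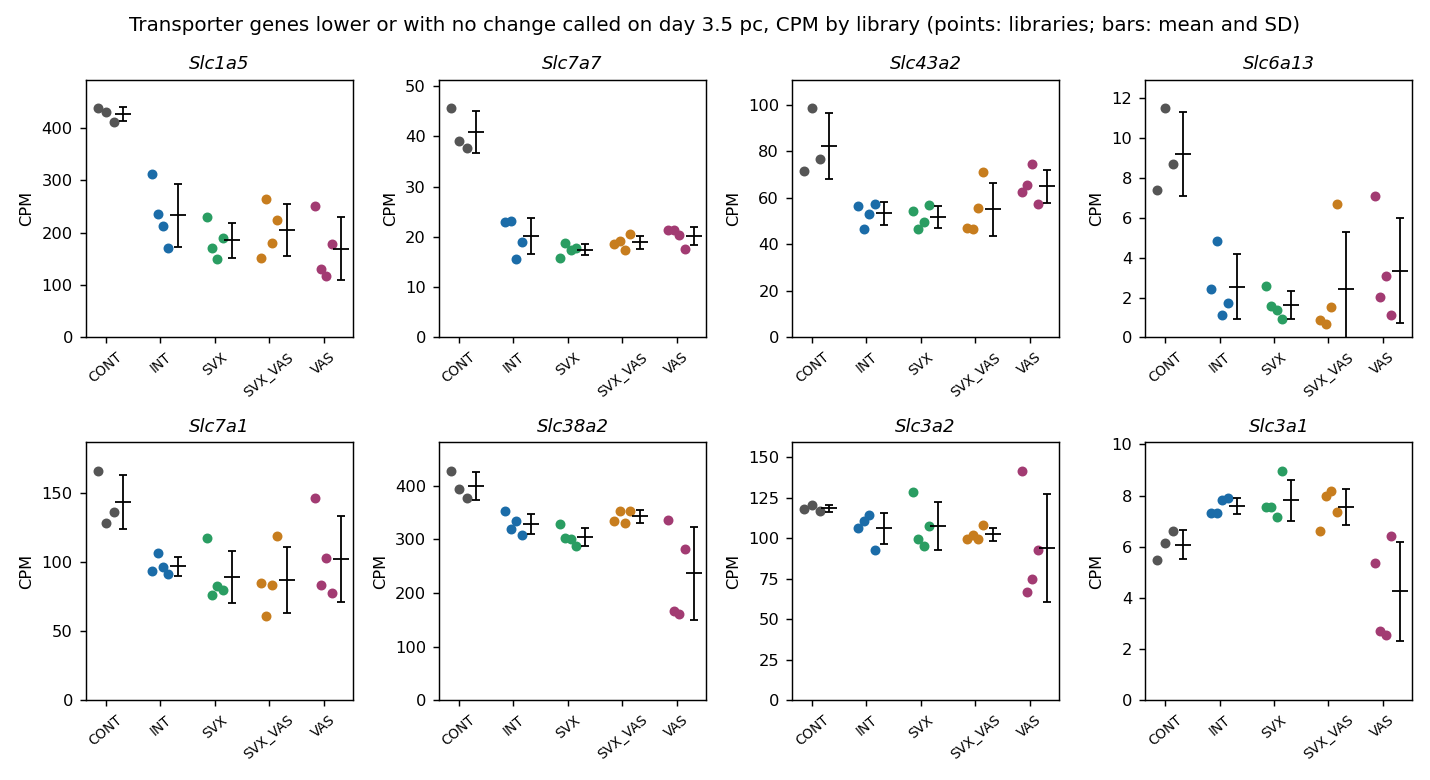
CPM of 8 members called lower in a comparison or not called (vertical axes from 0), 1 point per library in 5 groups, with the mean and SD drawn beside each group (the SD bar of Slc6a13 in SVX_VAS is cut at 0). Slc1a5 and Slc7a7 lie lower in every day 3.5 pc library than at estrus, and for Slc38a2, Slc3a2 and Slc3a1 VAS 2 and VAS 3 lie below VAS 1 and VAS 4.

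All 3 Slc43a members passed the filter. Slc43a3 (chr2:84936579-84958509, plus strand), which carries purine nucleobases, was at 7.73, 14.7 and 9.55 CPM at estrus and 25.3, 28.5, 50.02 and 39.8 in INT (logFC 1.75, SE 0.28, FDR 0.000109), with 1.82, 1.55 and 1.72 in the other groups. Slc43a1 (chr2:84838850-84863594, plus strand), which lets leucine and other large neutral amino acids pass, was at 4.46, 9.01 and 5.46 CPM and 9.98, 12.9, 19.6 and 13.7 CPM (logFC 1.15, SE 0.23, FDR 0.000652). The nearest libraries, CONT 2 and INT 1, differed by about 1 CPM. Slc43a2 (chr11:75531694-75577575, plus strand), a carrier of the same kind of substrate, was lower at 56.6, 46.5, 53.0 and 57.5 CPM in INT than the 71.8, 98.5 and 76.6 CPM at estrus (logFC -0.62, SE 0.15, FDR 0.00218), and the call was lost without CONT 2 (-0.48) or INT 2 (-0.56). It was also called lower in SVX (-0.67, and -0.52, under the cutoff, without CONT 2), and not in SVX_VAS (-0.578) or VAS (-0.34). Thus of the carriers for large neutral amino acids, Slc43a1 and Slc7a8 were called higher, Slc43a2 lower and Slc7a5 neither.

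The other 29 members had too few counts to be tested. Of these, 4 (Slc7a3, Slc7a10, Slc38a4 and Slc38a5) reached 3 CPM in 1 library by its own total, 25 in none, and 3 (Slc6a5, Slc7a12 and Slc36a1os) had no count in any library, where 3 counts correspond to 0.0944 to 0.237 CPM. With a minimum of 1 CPM in 3 libraries, 6 more members were tested, and Slc38a5, Slc1a6 and Slc7a10 were called higher in INT against CONT (logFC 2.38, 1.83 and 1.81), where 19.9% of all genes tested with that minimum were. Slc38a5, a glutamine and asparagine carrier, was at 0.357, 0.215 and 0.379 CPM at estrus and 1.29, 1.51, 1.82 and 2.10 in INT, and Slc7a10, a carrier of small neutral amino acids, at 0.476, 0.574 and 0.910 and 1.59, 2.27, 2.85 and 2.66 CPM, and at 0.0933 and 0.188 CPM in VAS 2 and VAS 3. Slc7a3, Slc38a4 and Slc6a12 were tested and not called in INT. Among the members that stayed under both minimums were the GABA, dopamine and serotonin carriers Slc6a11, Slc6a3 and Slc6a4, the kidney and gut carriers Slc6a18, Slc6a19 and Slc7a9, and Slc38a3 and Slc38a8. Of these, Slc6a4 had 14, 25 and 15 counts at estrus and 3, 2, 4 and 3 in INT 1 to 4. These are raw counts, not scaled for library size.

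Against INT, no member was called in the SVX, SVX_VAS or VAS columns by edgeR, and that fit called no other gene (0.00% of 17222 in each of the 3 comparisons). At an unadjusted p under 0.05 the edgeR test gave 2 members for SVX, 1 for SVX_VAS and 4 for VAS, out of 38, where 4.35%, 1.97% and 10.6% of all genes were under that p. DESeq2 also called 0 members in each, with 3 genes in SVX, 2 in SVX_VAS and 0 in VAS over all tested (0.0174%, 0.0116% and 0.00%), and limma-voom called 0, 0 and 2, the last being Slc6a20b and Slc3a1, lower in VAS, where it called 9.66% of all genes. Both were at their lowest in VAS 2 and VAS 3, and without these libraries limma-voom called 0 members and 0 of all genes. In the edgeR fit without VAS 1, Slc38a2 and Slc3a1 were called lower in VAS, and without VAS 4, Slc3a1, where 3.35% and 0.779% of all genes were called. The members under that unadjusted p were Slc1a1 and Slc7a6os in SVX, Slc1a1 in SVX_VAS, and Slc3a1, Slc38a2, Slc7a6os and Slc1a4 in VAS. The median size of the logFC over the 38 members was 0.15, 0.08 and 0.20 in the 3 comparisons, beside 0.11, 0.09 and 0.19 over all genes. These values do not show that the groups were alike.

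Around the carriers, the genes of 4 related lists were counted in the same fit. Over all genes tested, 20.9% were called higher and 12.7% lower in INT, 23.1% and 18.5% in SVX, 22.2% and 16.5% in SVX_VAS, and 23.3% and 17.3% in VAS, so that the counts of each list are to be read against these shares. Among other carriers of amino acids and peptides (15 of 20 genes tested), 2 were higher and 2 lower in INT against CONT, with counts of 2 and 2 in SVX, 3 and 2 in SVX_VAS and 3 and 2 in VAS (4 and 1 without VAS 2 and VAS 3). Slc16a10, a carrier of aromatic amino acids, was called higher in all 4 (logFC 1.04, 1.07, 0.92 and 1.47), and Slc15a2, a peptide carrier, lower (logFC -0.73, -0.89, -0.89 and -0.77). The share called in INT was below that over all genes, and the median logFC of the list was -0.02 beside -0.01 over all genes.

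Of the genes of the amino acid response (18 of 20 tested), 4 were higher and 1 lower in INT, 4 and 4 in SVX, 5 and 3 in SVX_VAS, and 5 and 2 in VAS. In INT the share called higher was near that over all genes, with a median logFC of 0.05. Phgdh, which starts serine synthesis, was called higher in all 4 comparisons (logFC 2.32, 2.40, 2.35 and 2.08). Asns, asparagine synthetase, had logFC of 0.83, 0.94, 1.0 and 0.71, and Eif2ak4, the kinase that senses uncharged transfer RNA, 1.22, 1.33, 1.25 and 1.34. Psat1, the next enzyme of serine synthesis, and Cebpb went the other way, with logFC of -0.90, -1.24, -1.55 and -0.73 (called in SVX and SVX_VAS) and -1.24, -1.75, -1.80 and -1.71 (called in all 4). The transcript of Atf4 had logFC of -0.38, -0.52, -0.51 and -0.76 and was called lower in VAS, but not without VAS 2 and VAS 3 (-0.36, FDR 0.112), where the list had 5 higher and 1 lower.

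Genes of amino acid sensing by mTORC1 (22 of 24 tested) were higher for 5 and lower for 0 in INT, 6 and 3 in SVX, 6 and 2 in SVX_VAS, and 5 and 5 in VAS. Without VAS 2 and VAS 3 the last counts were 4 and 1, with Lamtor1, Lamtor2, Lamtor4 and Lamtor5, subunits of the complex that anchors the Rag GTPases to the lysosome, no longer called lower. The share called higher in INT was near that over all genes, and the median logFC was 0.05. The largest changes were in Rragb and Rragd, which encode small GTPases that bring mTORC1 to the lysosome, with logFC of 2.90, 3.12, 2.90 and 3.33 and 2.50, 2.93, 2.80 and 2.91. Sesn1 and Sesn3, sestrins that restrain mTORC1, had logFC of 1.22, 1.46, 1.18 and 1.25 and 0.90, 0.94, 0.92 and 0.76, and Castor1, an arginine sensor, 0.69, 0.94, 1.04 and 0.86 (0.58, FDR 0.0723, for VAS without VAS 2 and VAS 3). Rheb, which activates mTORC1, had logFC of -0.56, -0.67, -0.62 and -0.67, and was called lower in all but INT.

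Enzymes of arginine, polyamine, glutamate and branched-chain amino acid metabolism (22 of 24 tested) were split at 4 higher and 4 lower in INT, 5 and 5 in SVX, 4 and 4 in SVX_VAS, and 5 and 5 in VAS (3 and 3 without VAS 2 and VAS 3). These shares were near those over all genes, with a median logFC of 0.16 in INT. Both steps of arginine synthesis from citrulline moved, in opposite directions. Ass1, the first step, had logFC of -2.52, -4.48, -3.47 and -2.95, and Asl, the second, 1.77, 1.95, 1.94 and 1.61. Nos3, the endothelial nitric oxide synthase that uses arginine, had logFC of 2.09, 2.40, 2.23 and 2.18. The endothelial list rose in the same libraries, and its part in the Nos3 values was not tested. Sat1, which acetylates polyamines, had logFC of -1.49, -2.18, -1.38 and -2.27, Bcat1, which transaminates branched-chain amino acids, -1.58, -2.81, -2.37 and -2.05, and Aspg -2.30, -2.29, -2.23 and -2.01, all called lower in the 4 comparisons, although Bcat1 was not called in VAS without VAS 2 and VAS 3 (-1.51, FDR 0.0592).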

How the data were processed

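Total RNA of 19 endometrial libraries (CONT 3, INT, SVX, SVX_VAS and VAS 4 each) was sequenced with a stranded total RNA kit. Per the labels and the study's methods, the authors trimmed reads with AdapterRemoval version 2, aligned them with STAR to GRCm38 (mm10) and deposited raw counts per gene from featureCounts, whose strand setting was not given in the sources used here. From these counts CPM, and TPM with the deposited gene lengths, were computed. Genes were filtered at 3 CPM in 3 libraries and scaled with TMM factors. Quasi-likelihood tests of edgeR 4.0.16 (glmQLFit, glmQLFTest, R 4.3.3) over all 5 groups gave logFC, SE and FDR. The FDR was Benjamini-Hochberg over all genes tested, with a logFC cutoff of 0.583 and an FDR of 0.05. The procedure was tested on simulated data. Counting 3 reads as a floor corresponded to 0.0944 to 0.237 CPM and covers counting error only.

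Groups followed the column names, matched to samples by label. Members (as whole families, by symbol), marker lists and pathway lists were chosen with earlier results of these data known. Members were named by call and size of logFC (up to 15 in each direction for INT against CONT, up to 10 in each other comparison), as Slc3a heavy chains and their light chains, or among the 10 highest by TPM. Members outside this rule were named after their values were seen. Of the untested members, 1 is not reported here. Alternatives covered scaling, filters, DESeq2 1.42.0, limma-voom 3.58.1, no logFC cutoff, the groups in the fit, a replicate block and leaving out libraries. Promoter windows came from RefSeq on GRCm38.p6.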

Additional observations from a re-analysis of the deposited data

Results flagged for a closer look

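In each group of 4 libraries, the highest and the lowest value of the named members and of the marker lists were compared with the nearest of the others, and a library was noted where that gap took more than 0.83 of the group's range. Of 172 groups examined 11 were noted, where chance alone gives about 8.6. Among the members, Slc36a4 was at 50.65 CPM in INT 3 (37.69 to 39.84 in the other INT libraries), and Slc6a13 was at 6.694 CPM in SVX_VAS 4 (0.665 to 1.516 in the others). SVX 1 stood apart for Slc7a11 at 154.1 CPM (13.61 to 16.75 in SVX 2 to 4), for Slc7a1 at 117.3 CPM (76.13 to 82.5) and for Slc7a5 at 50.23 CPM (35.69 to 36.25), and its estrogen-response sum was 630.1 CPM (210.2 to 240.4). The estrogen-response sum was also high in SVX_VAS 2 at 10818 CPM (253.4 to 1110), and the progesterone-response sum was 337.1 CPM in SVX_VAS 3 (279.4 to 282.6). In VAS 1 the epithelium list was high at 2003 CPM (440.9 to 701.6) and the T and NK cell list low at 31.23 CPM (64.71 to 68.28). The glandular epithelium list was at 466.6 CPM in INT 3 (103 to 139.8).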

How the results depend on the processing

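Over all alternatives, members called against CONT numbered 18 to 24 (INT), 20 to 25 (SVX), 19 to 28 (SVX_VAS) and 18 to 25 (VAS). Over all genes, the calls ran from 4897 to 8283 (INT), 6428 to 9836 (SVX), 5746 to 9285 (SVX_VAS) and 5712 to 9798 (VAS). The ends of these ranges do not all come from the same setting as those of the members, and the number tested differed. In SVX_VAS the 28 members came with no filter (64 tested), where 8333 genes were called. The 9285 genes came with no logFC cutoff, where 26 of 38 members were called. The highest member counts came with a looser filter (44 members tested) or none (64), except for VAS, where it was 25 without VAS 1. For SVX the highest count, 25, also came with no logFC cutoff among the usual 38 members tested. Against INT the count stayed at 0 for SVX and SVX_VAS, and for VAS it was 2 with limma-voom and 0 to 2 with 1 library left out. Slc7a5 in SVX was at 0.00186 and Slc3a2 in SVX at 0.0313 with upper quartile scaling, the opposite sign from the reported fit. In VAS, Slc7a5 was at -0.0052 with the replicate block and between -0.199 and 0.273 with 1 library left out, and Slc6a14 was at -0.0106 with VAS 2 and VAS 3 left out together (-0.305 with limma-voom), an alternative chosen after seeing the data. The cause was not tested in any of these. Upper quartile scaling moved the median logFC of all genes to 0.12, 0.16, 0.13 and 0.13 in the 4 comparisons with CONT, and the share of higher among all calls from 62.1%, 55.6%, 57.4% and 57.4% to 71.1%, 65.5%, 66.9% and 70.5%, while limma-voom gave 44.5% for VAS. Under upper quartile scaling the calls of Slc6a13 and Slc43a2 in INT, Slc7a11, Slc7a1 and Slc43a2 in SVX, Slc7a1 in SVX_VAS and Slc38a2 in VAS were lost. With that scaling Slc6a6 in SVX (0.584) and Slc38a6 in VAS (0.74) were called. Replicate numbers were shared only as numbers: 15 of 36 pairs of libraries had a correlation of deviations over 0.1 (-0.688 to 0.58), and 13 correlated best with their own number. A replicate block gave 19, 22, 21 and 19 members against CONT (all genes: 5606, 6923, 6411 and 6779). Against INT it gave 0, 0 and 0 members and no other gene. The block ended the calls of Slc6a13 in INT (-1.76, FDR 0.0816) and SVX_VAS (-1.83, FDR 0.0768) and added that of Slc43a2 in SVX_VAS (-0.60). Of 35 family TPM sums, 10 moved by more than 1 SD with DESeq2 size factors in place of the library total, which put the Slc1a, Slc3a and Slc38a sums lower in INT than in CONT without overlap. The filter on low counts left 29 of the 67 members untested, and whether more depth would bring any of them in was not tested.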
